A study of Mus musculus with 14 samples.

Results

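Whether monocytes labelled deficient for the aryl hydrocarbon receptor (AhR) answered interleukin-4 (IL-4) as wild-type monocytes did was examined gene by gene. Monocytes isolated from mouse bone marrow with a commercial kit were cultured for 3 h without IL-4 (medium) or with mouse IL-4 at 20 ng/mL, and their polyadenylated RNA was sequenced. Each of the numbers 1 to 7 in the library titles names 1 medium library and 1 IL-4 library of the same genotype. Numbers 1, 2, 3 and 7 are wild type and numbers 4, 5 and 6 are labelled AhR-deficient, so there were 4 wild-type libraries in medium, 4 wild-type libraries in IL-4, 3 AhR-deficient libraries in medium and 3 AhR-deficient libraries in IL-4. All 14 of the 14 libraries of the series entered, and 14288 autosomal genes of 55487 gene identifiers passed the filter on low counts. For every gene the log2 of its CPM (counts scaled to library size) in IL-4 minus that in medium was taken within each number, which gave 4 wild-type and 3 AhR-deficient IL-4 responses. The AhR-deficient response minus the wild-type response is called the interaction below: a positive value means a more positive (or less negative) IL-4 response in the libraries labelled AhR-deficient. Libraries held 33432502 to 42885079 counted reads or fragments.

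IL-4 binds its receptor on myeloid cells and activates the Janus kinases and the transcription factor STAT6, which switches on the genes of alternative macrophage activation. AhR is a cytosolic transcription factor that is activated by small aromatic molecules, moves to the nucleus, pairs with ARNT and binds DNA at sites with the core GCGTG. Its classical targets include Ahrr and Tiparp, which both restrain AhR itself.

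RNA of the targeted gene was higher in the libraries labelled AhR-deficient, and sex-linked transcripts separated the genotypes too. Ahr (chr12:35497974-35535038, - strand, in the mm10 build) was at 11.9 to 15.1 CPM in the wild-type medium libraries and at 16.4 to 27.3 CPM in the AhR-deficient ones. In IL-4 it was at 24.8 to 28.1 CPM and 38.6 to 47.3 CPM, so every library labelled AhR-deficient was above every wild-type library of its condition. The allele that was used, the part of the gene it removes and whether a number is 1 mouse or a pool are all facts that the labels leave out, so the summed count of the gene cannot check the labels, and every direction drawn below is that of the labels. Xist, the transcript of the inactive X chromosome, exceeded 10 CPM in 6 of 6 AhR-deficient and 0 of 8 wild-type libraries, and the Y-linked Ddx3y did so in 0 of 6 and 8 of 8. Genotype and sex therefore cannot be told apart in these libraries, and only autosomal genes were tested.

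Number 7, a wild-type number, stood apart from the others in what its IL-4 library held relative to its medium library. The summed CPM of 15 neutrophil markers changed by 0.72 (log2) within number 7 and by -0.07 to 0.17 within the other 6 numbers. Eosinophil markers changed by 1.04 within number 7 against -0.47 to 0.33 elsewhere, and basophil and mast cell markers by 0.96 against -0.36 to -0.05. B cell markers changed by 1.05 against 0.21 to 0.53, and erythroid markers by -2.28 against -0.61 to -0.11. Megakaryocyte and platelet markers changed by 0.70 within number 7 against -0.47 to 0.03, and T and NK cell markers by 0.39 against -0.44 to -0.06. Non-classical monocyte markers changed by -1.15 against -0.87 to -0.62. The summed CPM of 12 monocyte markers changed alike in all 7 numbers, by -0.74 to -0.60. It went from 25290 to 29049 in medium to 16578 to 18428 in IL-4. The single markers did not all follow the sum. In each genotype 7 of the 12 fell (edgeR, adjusted p under 0.05), and the responses of Fcgr1, described further on, did not overlap between the genotypes. A fall in the summed markers of a cell type cannot be told apart from less RNA of those genes per cell. In level, wild-type numbers 1 and 2 stood apart for eosinophil markers. Their medium libraries held 165 and 158 summed CPM, against 15.6 to 82.1 in the medium libraries of the other numbers. Some results below are therefore also given without numbers 1 and 2. The part that other cells play in the results was not tested, and the counts of pathway list members below are given with number 7, and also without it where that moved them by more than 1.5 times.

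**Figure D1:**
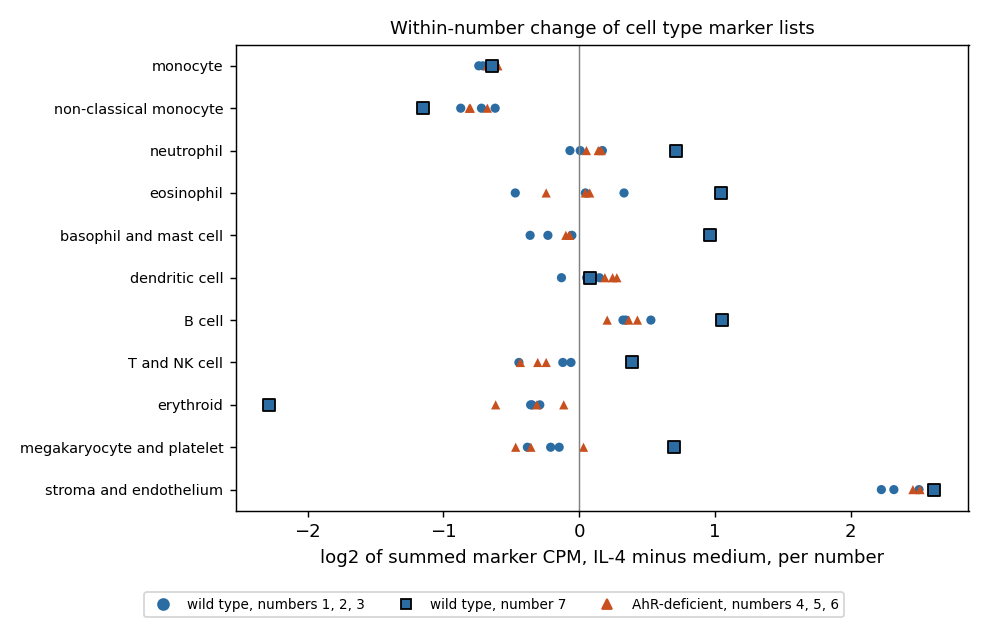
Change of 11 cell type marker lists within each number (x axis: log2 of the summed CPM of the list in IL-4 minus that in medium, 1 point per number). Circles are wild-type numbers 1, 2 and 3, the outlined square is wild-type number 7 and triangles are AhR-deficient numbers 4, 5 and 6. Number 7 lies apart for the neutrophil (0.72), eosinophil (1.04), basophil and mast cell (0.96), B cell (1.05) and erythroid (-2.28) lists, while the monocyte list lies between -0.74 and -0.60 in every number.

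The dendritic cell list was the 1 list in which the change separated the genotypes: it was -0.13, 0.15, 0.06 and 0.08 in wild-type numbers 1, 2, 3 and 7 and 0.28, 0.25 and 0.19 in AhR-deficient numbers 4, 5 and 6. At an unadjusted p under 0.05, 3 of its 10 measured genes were more positive and 1 more negative in AhR-deficient libraries, against 3.95% and 4.49% of all genes. The largest part of its sum came from Irf8, a transcription factor that monocytes also express, which fell with IL-4 in both genotypes. Mean Irf8 went from 262 to 196 CPM in wild type and from 307 to 260 CPM in AhR-deficient libraries. By mean CPM, Flt3, Itgax, Cd209a and Bcl11a rose in both genotypes, Bst2 and Zbtb46 fell in both, and Siglech fell in AhR-deficient libraries only. Itgax, which encodes the integrin CD11c of dendritic cells and many macrophages, had within-number differences of 0.55, 0.65, 1.03 and 0.32 in wild type and 1.28, 1.35 and 1.04 in AhR-deficient cells. The stroma and endothelium list changed by 2.23 to 2.62 in every number, and Pecam1, an adhesion molecule that leukocytes also carry, made up most of that sum. Tpsb2 of the mast cell list and Gp1bb of the platelet list were at 0 in all libraries.

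The medium and IL-4 libraries that share a number also shared their deviations from their group. Across the 10289 genes whose mean log2 CPM reached 1, the deviations of the 2 libraries of a number correlated at 0.503 to 0.704 in numbers 1 to 6 and at 0.175 in number 7. The highest correlation with an IL-4 library of another number of the same genotype was 0.145 in number 1 and 0.070 in number 7, and below 0 in the other 5 numbers. Deviations within a group sum to 0, so a positive correlation within a number pulls those with other numbers below 0. For number 7 this check of the pairing was weak. Differences were taken within numbers by plan, which is the basis of every value below.

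IL-4 moved a large part of the transcriptome in both genotypes, and mostly the same way. In wild type 3272 genes rose and 2830 fell (42.7% of genes tested, edgeR quasi-likelihood test, adjusted p under 0.05), and in the AhR-deficient libraries 2644 rose and 2556 fell (36.4%). The first count rests on 4 numbers and the second on 3, so the shares do not compare the genotypes. Of the 4450 genes called in both, 4446 moved in the same direction. The spread (SD over genes) of the response was 0.778, 0.776, 0.781 and 0.876 in wild-type numbers 1, 2, 3 and 7 and 0.772, 0.746 and 0.791 in AhR-deficient numbers 4, 5 and 6, so number 7 had the widest response and the genotypes overlapped. Over 35 IL-4 and alternative activation genes the median response was 4.32, 3.44, 3.68 and 2.88 in wild type and 3.67, 3.76 and 3.46 in AhR-deficient libraries. The wild-type values enclose the AhR-deficient ones, with number 1 highest and number 7 lowest.

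No gene passed the adjusted threshold for a difference between those responses. In edgeR with the number as a block, 0 of 14288 genes (0%) were called, and the smallest adjusted p was 0.122. An unadjusted p under 0.05 was reached by 1206 genes (8.44%), of which 564 (3.95%) had a more positive response in AhR-deficient libraries and 642 (4.49%) a more negative one. If no gene differed, 714.4 genes would be expected there. The excess over that value depended on the fit: 533 genes reached the threshold without the block and 673 in DESeq2 with it, both fewer than 714.4. The 7 responses themselves did not overlap between the genotypes for 1278 genes (8.94%): for 572 (4%) all 3 AhR-deficient responses lay above all 4 wild-type ones, and for 706 (4.94%) all lay below. With DESeq2 size factors this split was 679 above and 558 below, and with a filter of 1 CPM in 3 libraries it was 688 and 426. If no gene differed, a share of 0.0571 of the genes would be expected to have responses that do not overlap.

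Other fits called some genes. DESeq2 with the same block called 57 genes (0.399%), 34 with a more positive response (0.238%) and 23 with a more negative one (0.161%) in AhR-deficient libraries. All 57 had non-overlapping responses and an unadjusted p under 0.05 in edgeR, where their adjusted p reached up to 0.412. Without the filter on low counts edgeR called 216 of 26574 genes, and these held all 57. Most edgeR intervals were narrow. Of the 10289 genes whose mean log2 CPM reached 1, 10076 (97.9%) had a 95% interval of the interaction wholly within 1 log2 unit of 0. For 8323 (80.9%) it lay within 0.5. The median standard error over the 10289 genes was 0.0875. These intervals measure the spread of the within-number responses, which may be technical. They set no bound on an effect of genotype, which cannot be told apart from sex here. Leaving out number 4 left 565 genes at an unadjusted p under 0.05 and leaving out number 7 left 1617, with 0 genes called in edgeR in either case.

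**Figure D2:**
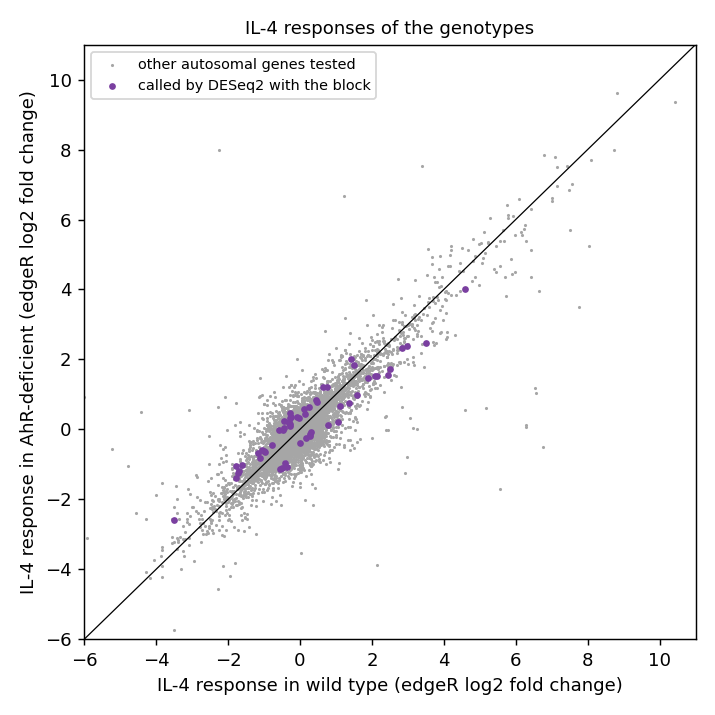
IL-4 response of each autosomal gene tested, as the edgeR log2 fold change in wild type (x axis) and in AhR-deficient libraries (y axis), with the line of equal response. Grey points are the 14288 genes and purple points the 57 called by DESeq2 with the block, which lie near the line on this scale; 4 genes lie outside the axes.

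The 12 named genes with a more positive response in AhR-deficient libraries included the immediate-early regulators Fos, Fosl2 and Sik1, which responded in opposite directions in the genotypes. Sik1, Emp1 and Rnf144a had the smallest p of the group in edgeR, and Thbs1 and Hpgd had the largest differences. Each of the 12 had non-overlapping responses, which the naming rule required. Each had an adjusted p of 0.122 to 0.182 in edgeR and was called by DESeq2 with the block. The exact permutation p over the 7 responses (two-sided) was 0.0571 for each, the smallest that 4 against 3 can give. Responses that do not overlap always give that value, so it restates the naming rule.

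Fos (chr12:85473890-85477273, + strand) encodes a subunit of the AP-1 transcription factor, which forms within minutes of many stimuli. In wild-type numbers 1, 2, 3 and 7 it was at 169.8, 154, 121 and 159 CPM in medium and at 112, 123, 104 and 106 CPM in IL-4. In AhR-deficient numbers 4, 5 and 6 it was at 85.8, 149 and 114 CPM in medium and at 113, 166 and 129.8 CPM in IL-4. Fos was lower in IL-4 in each of the 4 wild-type numbers and higher in each of the 3 AhR-deficient ones, and the levels of the genotypes overlapped in both conditions. The within-number differences were -0.60, -0.32, -0.23 and -0.58 in wild type and 0.40, 0.15 and 0.18 in AhR-deficient libraries (log2), and the interaction was 0.68 ± 0.10 (SE; adjusted p = 0.131 in edgeR and 6.23e-06 in DESeq2).

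The 250 bases before the start of Fos are printed because AhR binds GCGTG cores and Fos had the smallest adjusted p in DESeq2. The sequence is RefSeq's for GRCm38.p6, chr12:85473640-85473889, + strand, 5′ to 3′, with the 1 match to the AhR core, read on the other strand and beginning 229 bases before the start, in capitals.
Fos: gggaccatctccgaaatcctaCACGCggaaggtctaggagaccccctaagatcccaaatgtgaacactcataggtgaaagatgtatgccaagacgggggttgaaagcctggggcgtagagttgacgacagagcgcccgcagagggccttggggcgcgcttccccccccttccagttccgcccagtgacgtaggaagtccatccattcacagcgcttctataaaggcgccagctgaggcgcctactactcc
A match to these letters is a description of the sequence only. GCGTG was found on either strand in 28.2% of 32851 RefSeq promoter windows of this length, and in 6 of the 15 windows of the 10 genes of this group that have an entry. In the group of more negative genes, described further on, it was found in 2 of 9 windows.

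Fosl2 (chr5:32135801-32157842, + strand) encodes the AP-1 subunit Fra-2 and was the more abundant of the pair in CPM, a scale that does not correct for gene length. It was at 602, 506, 453 and 533 CPM in wild type in medium and at 454, 424, 441 and 401 CPM in IL-4. The AhR-deficient libraries had 326, 448 and 389.8 CPM in medium and 454, 497 and 482 CPM in IL-4. In medium every AhR-deficient library was below every wild-type library, and in IL-4 the groups met, with the number 4 library among the wild-type ones. The interaction was 0.59 ± 0.10 (adjusted p = 0.182 in edgeR, 7.35e-05 in DESeq2). With IL-4, Fosl2 fell in wild type (edgeR adjusted p = 0.0075) and rose in AhR-deficient libraries (edgeR adjusted p = 0.01).

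Sik1 (chr17:31844250-31855804, - strand) encodes a salt-inducible kinase that restrains the CREB coactivators. Its levels were 67.9, 55.5, 45.4 and 53.4 CPM in wild type in medium and 50.3, 47.6, 41.2 and 45.8 CPM in IL-4. They were 29.2, 43.1 and 36.8 CPM in AhR-deficient libraries in medium and 40.0, 49.9 and 48.8 CPM in IL-4. Sik1 was lower in the AhR-deficient medium libraries than in any wild-type one, and the genotypes overlapped in IL-4. The interaction was 0.61 ± 0.087 (adjusted p = 0.122 in edgeR, 0.00014 in DESeq2). Cttnbp2nl, which encodes a cortactin-binding protein, had the same pattern of opposite signs, with -0.43, -0.44, -0.14 and -0.21 in wild type and 0.28, 0.17 and 0.096 in AhR-deficient libraries (log2).

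Thbs1, Hpgd, Ssh2, Rnf144a and Ms4a6b fell with IL-4 in both genotypes and had the smaller fall in AhR-deficient libraries (edgeR, adjusted p under 0.05 within each genotype). Thbs1 (chr2:118111876-118127133, + strand), which encodes the secreted matrix protein thrombospondin-1, was at 4164, 4353, 2641 and 4498 CPM in wild type in medium and at 315, 335, 322 and 377 CPM in IL-4. In AhR-deficient libraries it was at 2535, 5324 and 3219.9 CPM and 522, 837 and 462 CPM. The genotypes overlapped in medium, and in IL-4 every AhR-deficient library was above every wild-type one, for an interaction of 0.93 ± 0.17. Hpgd, whose enzyme inactivates prostaglandins, had the converse pattern: 159, 98.0, 77.1 and 115 CPM in wild type against 35.3, 59.0 and 52.6 CPM in AhR-deficient libraries in medium. In IL-4 the Hpgd levels were 38.0, 29.7, 23.0 and 39.6 CPM and 21.0, 25.5 and 24.0 CPM, which overlap. Its interaction was 0.73 ± 0.14 (adjusted p = 0.182 in edgeR, 0.00014 in DESeq2).

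Ssh2, which encodes a phosphatase that activates the actin-severing protein cofilin, had responses of -1.88, -1.71, -1.66 and -1.70 in wild type and -1.11, -1.39 and -1.25 in AhR-deficient libraries. Rnf144a, a ubiquitin ligase gene, had -1.04, -1.12, -1.08 and -1.004 in wild type and -0.48, -0.59 and -0.67 in AhR-deficient libraries. Ms4a6b, a member of the MS4A family of membrane proteins, had -0.99, -0.97, -0.93 and -1.02 in wild type and -0.66, -0.57 and -0.73 in AhR-deficient libraries. Emp1, Wipf1 and Lpxn rose in both genotypes and had the larger rise in AhR-deficient libraries. Emp1, a membrane protein gene, had responses of 0.22 to 0.33 in wild type and 0.60 to 0.71 in AhR-deficient libraries. Wipf1, whose protein binds and stabilises the actin regulator WASP, had 0.64 to 0.90 and 1.13 to 1.34. Lpxn, which encodes the adhesion adaptor leupaxin, had 1.43 to 1.59 and 1.79 to 1.93.

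**Figure D3:**
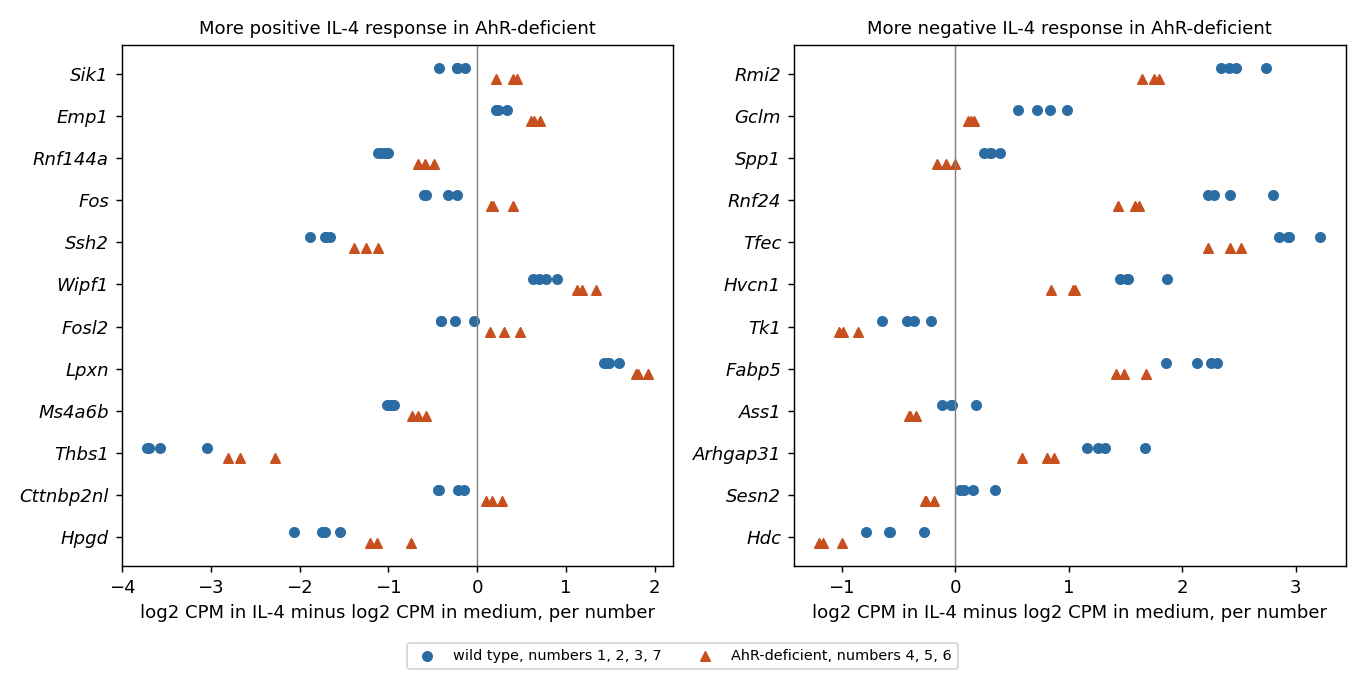
Within-number IL-4 responses of the 24 named genes (x axis: log2 CPM in IL-4 minus log2 CPM in medium). Blue circles are wild-type numbers 1, 2, 3 and 7 and orange triangles AhR-deficient numbers 4, 5 and 6. The naming rule chose genes whose circles and triangles do not overlap. Sik1, Fos, Fosl2 and Cttnbp2nl have circles below 0 and triangles above 0, and Sesn2 has the reverse.

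The 12 named genes with a more negative response in AhR-deficient libraries included 7 that had the smaller rise from a higher starting level. In medium, 11 of the 12 had every AhR-deficient library above every wild-type one. In IL-4 the genotypes were apart for 5: Ass1 and Sesn2 kept that order, and Rmi2, Rnf24 and Arhgap31 had the reverse one. Their adjusted p was 0.122 to 0.217 in edgeR, and all 12 were called by DESeq2 with the block. The exact permutation p, fixed by the naming rule, was again 0.0571 (two-sided) for each.

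Gclm (chr3:122245557-122270732, + strand) encodes the modifier subunit of glutamate-cysteine ligase, the enzyme that begins glutathione synthesis, and is a classical target of the oxidative stress factor NRF2. It was at 36.5, 37.8, 44.4 and 38.2 CPM in wild type in medium and at 72.1, 67.2, 65.1 and 63.0 CPM in IL-4. In AhR-deficient libraries it was at 66.2, 55.3 and 67.6 CPM in medium and at 71.7, 61.8 and 74.2 CPM in IL-4. Gclm rose with IL-4 in wild type (edgeR adjusted p = 2.6e-06). In AhR-deficient libraries, which in medium already lay above all wild-type medium libraries, the change did not pass the test (edgeR adjusted p = 0.15). The genotypes overlapped in IL-4. The responses were 0.98, 0.83, 0.55 and 0.72 in wild type and 0.12, 0.16 and 0.14 in AhR-deficient libraries (log2), for an interaction of -0.63 ± 0.092 (adjusted p = 0.122 in edgeR, 0.000131 in DESeq2).

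The Gclm promoter is printed because Gclm is the NRF2 target with the smallest p and its 250 bases hold letters of both an NRF2 element and the AhR core. It is RefSeq's sequence for GRCm38.p6, chr3:122245307-122245556, + strand, 5′ to 3′. Capitals mark the core GCGTG on either strand, which begins 238, 187 and 12 bases before the start, and, at 134 bases, a match on the other strand to the NRF2 core TGACNNNGC.
Gclm: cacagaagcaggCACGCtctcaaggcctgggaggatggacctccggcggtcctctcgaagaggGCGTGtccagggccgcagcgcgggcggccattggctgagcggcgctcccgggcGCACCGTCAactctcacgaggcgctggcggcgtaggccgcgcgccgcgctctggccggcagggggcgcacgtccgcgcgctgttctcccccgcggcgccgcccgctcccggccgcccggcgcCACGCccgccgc
TGACNNNGC was found on either strand in 10.2% of all 32851 windows and in 3 of the 9 windows of the 8 genes of this group that have an entry. For the group above it was found in 2 of 15 windows. The AP-1 site TGANTCA was in 6.75% of all windows, in 1 of the 15 windows of the first group and in 0 of the 9 of the second.

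Rmi2 (chr16:10835059-10892966, + strand), which encodes a subunit of the BLM helicase complex that resolves DNA recombination intermediates, rose in both genotypes. It was at 5.47, 5.51, 5.63 and 4.35 CPM in wild type in medium and at 29.3, 30.9, 28.8 and 29.4 CPM in IL-4. AhR-deficient libraries went from 7.56, 6.80 and 7.64 CPM to 23.8, 23.0 and 26.6 CPM. The order of the genotypes turned over: all AhR-deficient libraries were higher in medium and all were lower in IL-4. The interaction was -0.76 ± 0.11 (adjusted p = 0.122 in edgeR, 0.00255 in DESeq2).

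Rnf24, which encodes a RING-finger membrane protein, and Arhgap31, a gene for an inhibitor of the small GTPases CDC42 and RAC1, turned over in the same way. Rnf24 was at 3.38, 4.18, 4.18 and 4.41 CPM in wild type and 5.60, 4.72 and 5.01 CPM in AhR-deficient libraries in medium, and at 23.8, 20.6, 19.8 and 23.9 CPM and 15.2, 14.6 and 15.1 CPM in IL-4. Its interaction of -0.89 ± 0.14 was the largest of the 12. Arhgap31 was at 90.9 to 128 CPM in wild type and 131 to 168 CPM in AhR-deficient libraries in medium, and at 279 to 289 CPM and 239 to 265 CPM in IL-4, for an interaction of -0.60 ± 0.12.

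Fabp5 (chr3:10012548-10016607, + strand), a fatty acid carrier gene of macrophages, rose in both genotypes to overlapping levels. It was at 18.4, 20.0, 17.0 and 22.9 CPM in wild type in medium and at 35.6, 33.3 and 31.1 CPM in AhR-deficient libraries. In IL-4 it was at 91.3, 95.5, 74.3 and 83.0 CPM and 99.8, 89.1 and 100. CPM. The interaction was -0.61 ± 0.11 (adjusted p = 0.182 in edgeR, 0.00161 in DESeq2). Tfec, a transcription factor gene of the MiT family that IL-4 raises in macrophages, had the same form, with 20.8 to 31.8 CPM in wild type and 33.6 to 52.8 CPM in AhR-deficient libraries in medium and overlapping levels in IL-4. Its responses were 3.22, 2.86, 2.94 and 2.93 in wild type and 2.22, 2.52 and 2.42 in AhR-deficient libraries (log2). Hvcn1, which encodes a voltage-gated proton channel of phagocytes, had responses of 1.87, 1.52, 1.45 and 1.52 in wild type and 0.84, 1.03 and 1.06 in AhR-deficient libraries.

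**Figure D4:**
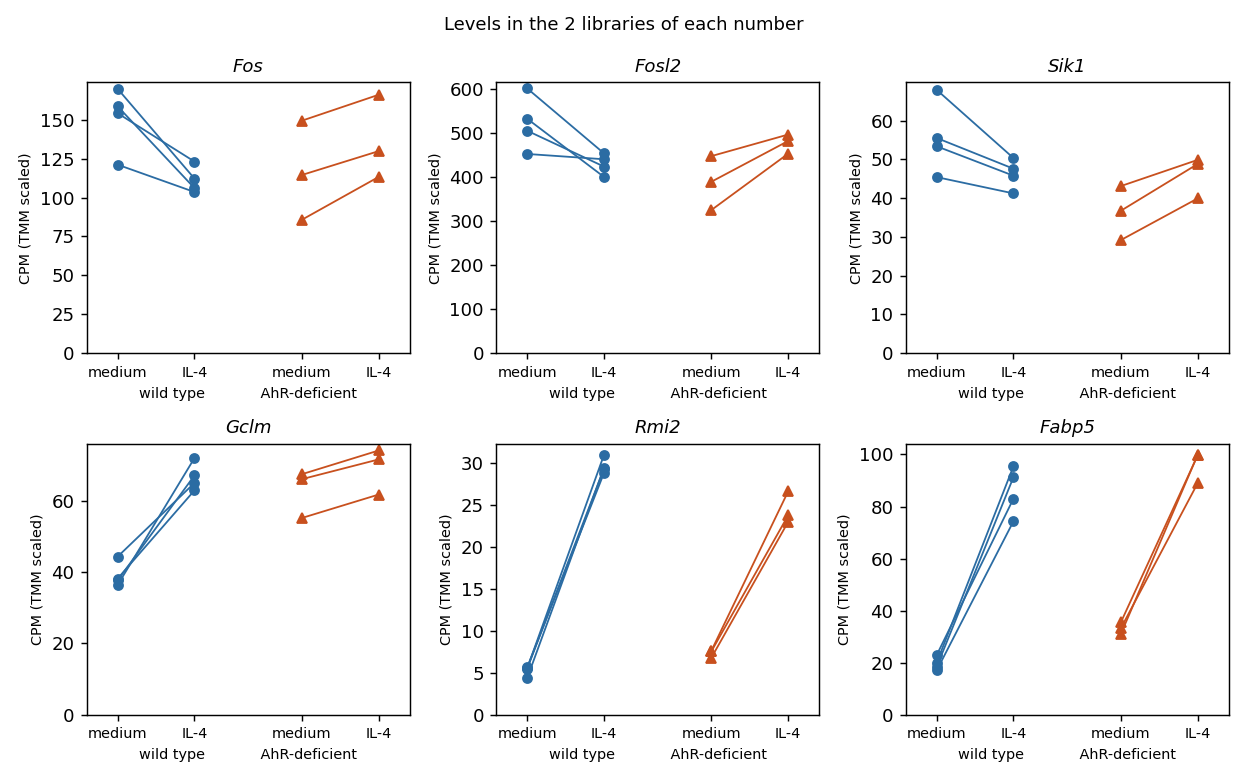
CPM of 6 named genes in the medium and IL-4 library of each number (y axis from 0; 1 line per number, blue for the 4 wild-type numbers and orange for the 3 AhR-deficient ones). Fos, Fosl2 and Sik1 slope down in wild type and up in AhR-deficient numbers. Gclm and Fabp5 start higher in AhR-deficient numbers and reach overlapping levels in IL-4, and the order of the genotypes for Rmi2 turns over.

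Tk1 and Hdc fell with IL-4 in both genotypes, further in AhR-deficient libraries. Tk1, the thymidine kinase of dividing cells, had responses of -0.21, -0.43, -0.65 and -0.36 in wild type and -1.03, -0.85 and -0.99 in AhR-deficient libraries. Hdc, whose enzyme makes histamine, had -0.58, -0.59, -0.27 and -0.78 in wild type and -0.99, -1.20 and -1.17 in AhR-deficient libraries, and its protein product is abundant in basophils, whose markers moved by 0.96 within number 7. Without number 7 the sign of the interaction of all 24 named genes was kept, and 24 of 24 had an unadjusted p under 0.05. These genes were chosen for small p and for responses that do not overlap, so neither result is an independent check.

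Sesn2, a gene of the stress-responsive sestrins, was at 71.5, 82.0, 93.6 and 85.6 CPM in wild type and 134, 123 and 128 CPM in AhR-deficient libraries in medium. In IL-4 it was at 91.2, 91.6, 96.1 and 90.4 CPM and 111, 108 and 106 CPM, still apart but closer. It rose with IL-4 in wild-type libraries and fell in the AhR-deficient ones, each by a small amount (edgeR adjusted p = 0.03 and 0.0084), for an interaction of -0.39 ± 0.077. Ass1, the argininosuccinate synthase that regenerates arginine, fell in AhR-deficient libraries, where its responses were -0.41, -0.34 and -0.40, and had 0.18, -0.041, -0.031 and -0.11 in wild type. Spp1, which encodes the cytokine osteopontin, had responses of 0.31, 0.25, 0.30 and 0.39 in wild type, where it rose, and -0.16, 0.00063 and -0.084 in AhR-deficient libraries.

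The named genes were apart between genotypes more often in medium than in IL-4: 5 of the 12 more positive and 11 of the 12 more negative genes in medium, and 2 and 5 in IL-4. Over all 14288 genes, the mean log2 difference between genotypes was larger in size in medium than in IL-4 for 58.7%, and the libraries of the genotypes did not overlap in medium for 19.9% and in IL-4 for 18.2%. Among the 1206 genes at an unadjusted interaction p under 0.05, the larger difference was in medium for 846 (70.1%), with no overlap in medium for 42.9% and in IL-4 for 26.7%. Of the 57 genes that DESeq2 called, 45 had the larger difference in medium, 32 did not overlap there and 16 did not overlap in IL-4. The interaction is computed from the same libraries as both differences, so these shares describe where it lay and are not a test.

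A smaller response in AhR-deficient libraries was not general. Of the 717 genes that rose by an average of at least 1 log2 unit over the genotypes and passed the test, 410 (57.2%) had the smaller rise in AhR-deficient libraries, with a median interaction of -0.07. Of the 600 genes that fell by as much, 300 (50%) had the smaller fall. A smaller rise is a negative interaction and a smaller fall a positive one. Over all 14288 genes, 6613 interaction estimates were positive, so an even split is not the baseline. The count for falling genes depended on single numbers: it was 223 of 587 without number 7 and 389 of 596 without numbers 1 and 2.

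The gene lists are read against all 14288 genes tested, of which 6613 had a positive interaction estimate. At an unadjusted p under 0.05, 3.95% of all genes were more positive and 4.49% more negative in AhR-deficient libraries. Members at that threshold were all more negative in the NRF2, ATF4, endoplasmic reticulum, cholesterol, MHC class II, DNA damage and interferon lists. They were all more positive in the glycolysis, LXR, ribosome biogenesis and NF-kB lists, the last with 1 such member. Leaving out single numbers gave members on both sides in some of these lists, as given below. Some genes count in more than 1 list, such as Hes1 in the AhR and Notch lists and Sesn2 in the ATF4 and DNA damage lists. The lists were drawn up with earlier results of these data known, so their counts are descriptions and do not stand as independent evidence. No member of any list passed the adjusted threshold in edgeR.

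Of 25 genes of NRF2, glutathione and thioredoxin, 7 were more negative and 0 more positive, the median interaction was -0.19 against -0.015 over all genes, and 4 of 25 estimates were positive. Beside Gclm, they included Pgd, an enzyme of the pentose phosphate route to NADPH (-0.18 ± 0.055), Ftl1, the ferritin light chain (-0.20 ± 0.067), and Txn1, thioredoxin (-0.19 ± 0.063). Without number 1 there were 4 more negative and 2 more positive members and a median of -0.12. The more negative count was also 4 without number 2 or without number 4, and 12 without number 7, when 883 of 14201 genes were more negative. Of 29 genes of ATF4 and amino acid stress, 10 were more negative and 0 more positive, with a median of -0.13 and 4 positive estimates. Its leading members were Sesn2, the mTORC1 inhibitor Ddit4 (-0.56 ± 0.15), the asparagine synthetase Asns (-0.33 ± 0.088) and the glutathione-degrading enzyme Chac1 (-0.63 ± 0.18). The count was 6 without number 1 or number 2, 4 without both, 5 without number 4 and 17 without number 7, and the median was -0.081 without number 1 and -0.063 without numbers 1 and 2.

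Of 20 genes of endoplasmic reticulum chaperones and the unfolded protein response, 5 were more negative and 0 more positive (median -0.06). They included the secreted chaperone-like Creld2 (-0.30 ± 0.077) and the chaperones Hyou1 (-0.22 ± 0.079) and Hspa5 (-0.22 ± 0.084). This count was 2 without number 1 or number 5, 1 without number 4 and 3 without number 6. Without numbers 1 and 2 together, 3 were more negative and 2 more positive, and the median was -0.020 without number 1. Of 25 genes of cholesterol and fatty acid synthesis, 4 were more negative and 0 more positive (median -0.17), and 1 of 25 estimates was positive. Srebf2, the master regulator of that pathway, had -0.23 ± 0.078, and the epoxidase Sqle, whose responses overlapped between the genotypes, had -0.45 ± 0.16. The count was 2 without number 1, 1 without number 2 or number 4, and 8 without number 7. Without numbers 1 and 2 together it was 0, with 1 more positive. The median was -0.083 without number 1 and -0.035 without numbers 1 and 2.

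Ribosome biogenesis lay on the other side, with 5 of 29 members more positive and 0 more negative, against 3.95% of all genes. Its median was 0.07, and 24 of 29 estimates were positive. Heatr1, a factor of ribosomal RNA transcription, had 0.31 ± 0.089, and Wdr12, a factor of large subunit maturation whose responses overlapped, had 0.38 ± 0.13. Polr1a and Polr1b, the large subunits of RNA polymerase I, had 0.14 ± 0.056 and 0.24 ± 0.092. The count was 1 without number 4, 3 without number 5, 9 without number 7 and 2 without numbers 1 and 2.

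AP-1, EGR and other immediate-early genes had estimates on both sides of 0, although Fos, Fosl2 and Sik1 were among the leading single genes. Of 31 members, 6 were more positive and 1 more negative, the median was -0.0097, and 15 of 31 estimates were positive. The median was 0.0063 with DESeq2 size factors, 0.21 without number 1 and -0.13 without number 7, when 4 were more positive and 6 more negative. Without number 5 the counts were 4 and 4. The 1 more negative member was Klf4, a Krüppel-like factor that IL-4 raises in macrophages (-0.30 ± 0.081). Of 23 Notch and TGF-beta genes, 5 were more positive and 2 more negative, with a median of 0.13. More negative members numbered 4 without number 7, 1 without number 1, 2, 3 or 5, and 0 without number 4 or number 6. The median was 0.068 without number 4. The more positive members included the receptor Notch1 (0.34 ± 0.11), the transcriptional inhibitor Id2 (0.34 ± 0.11) and Hes1, the classical Notch target (0.90 ± 0.18). Hes1 was at 1.80 to 1.96 CPM and 1.59 to 1.89 CPM in medium in wild type and AhR-deficient libraries, and at 2.26 to 2.44 CPM and 3.24 to 4.46 CPM in IL-4. The genotypes thus overlapped in medium and were apart in IL-4, at low levels.

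**Figure D5:**
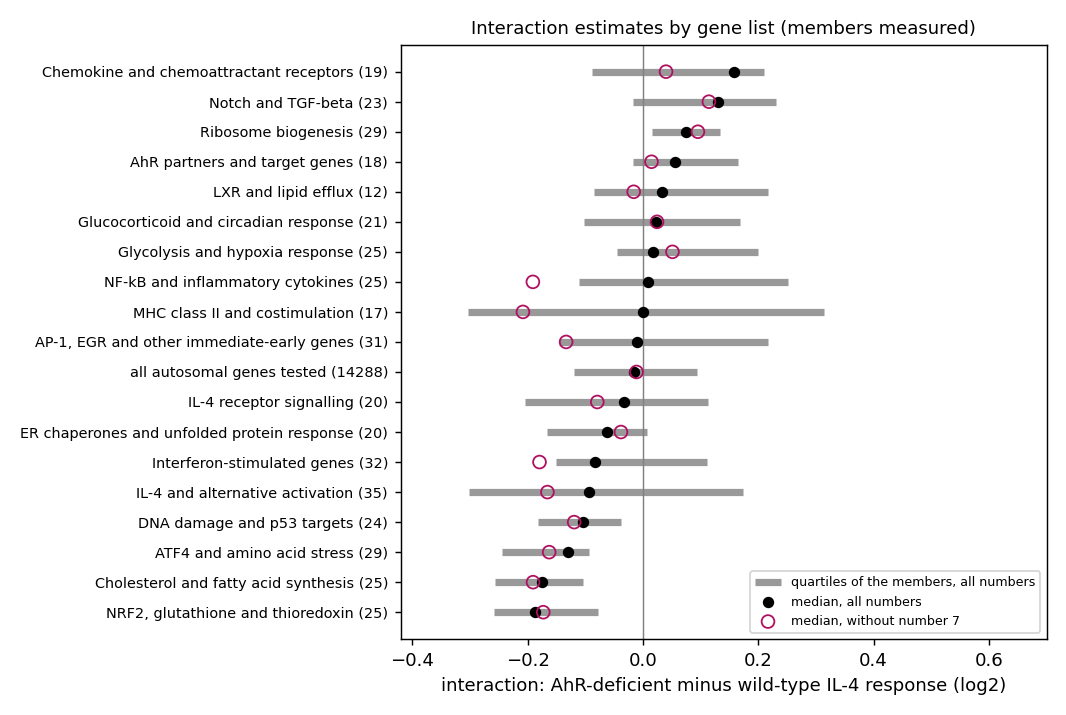
Interaction estimates (x axis: AhR-deficient minus wild-type IL-4 response, log2) for 18 gene lists and for all 14288 genes, with the number of members measured in parentheses. Black points are medians and grey bars quartiles over members with all numbers, and open circles are medians without number 7. NRF2 (-0.19), cholesterol (-0.17) and ATF4 (-0.13) genes have the lowest medians with all numbers. Without number 7 the MHC class II list moves from 0.00 to -0.21 and the NF-kB list from 0.01 to -0.19.

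Genes of the IL-4 pathway itself had differences in both directions. Of 35 IL-4 and alternative activation genes, 27 rose in wild type and 27 in AhR-deficient libraries (edgeR, adjusted p under 0.05), 3 were more positive and 5 more negative, and the median interaction was -0.09, with -0.17 without number 7, -0.015 without number 1, -0.020 without number 4 and 0.015 without numbers 1 and 2. The 3 and 5 of 35 stand against 3.95% and 4.49% of all genes. These counts were 6 and 3 without number 1, 5 and 6 without number 3, 1 and 3 without number 4, and 2 and 3 without number 5. Arg1, the arginase of alternatively activated macrophages, had -1.05 ± 0.39 (adjusted p = 0.533), with responses of 10.57, 9.35, 9.70 and 10.10 in wild type and 9.69, 8.86 and 9.07 in AhR-deficient libraries, which overlap. Slc7a2, a cationic amino acid transporter that feeds arginase, had overlapping responses and -0.63 ± 0.17, and Clec10a, a C-type lectin of alternatively activated cells, 0.34 ± 0.12. Of 20 genes of IL-4 receptor signalling, 1 was more positive and 4 more negative (median -0.03), against the same 3.95% and 4.49%. The counts were 0 and 0 without number 4, 4 and 3 without number 3, 1 and 2 without number 2, 2 and 3 without number 1, 0 and 4 without number 6, and 1 and 0 without numbers 1 and 2. They included the phosphatase Ptpn6, known as SHP-1 (-0.27 ± 0.094). Socs1, the cytokine signalling inhibitor that STAT6 induces, had -0.56 ± 0.28 (adjusted p = 0.631).

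Of the 25 AhR partners and target genes listed, 18 were measured. At an unadjusted p under 0.05, 3 of the 18 were more positive, against 3.95% of all genes, and 1 was more negative, against 4.49%. The more positive members were Lpxn, Hes1 and Ugt1a6a, and the more negative one was Ahrr. The median was 0.06, and 0.015 without number 7. Without number 1 there were 5 more positive members, and without number 2, 4, 5 or 6 there were 0 more negative ones. The interaction of Ahr itself was 0.045 ± 0.12 (adjusted p = 0.949): its responses were 1.06, 0.86, 1.17 and 0.81 in wild type and 0.79, 1.05 and 1.23 in AhR-deficient libraries, so IL-4 raised it in every number and the genotypes overlapped. Ahrr, the AhR repressor, had responses of 0.95, 1.002, 0.61 and 1.53 in wild type and 0.56, 0.48 and 0.56 in AhR-deficient libraries, all below the wild-type ones, for an interaction of -0.48 ± 0.19 (adjusted p = 0.546). Its levels overlapped in medium, at 5.25 to 9.36 CPM in wild type and 4.68 to 6.69 CPM in AhR-deficient libraries. In IL-4 they were apart, at 12.7 to 18.1 CPM and 6.94 to 9.71 CPM. Tiparp, a mono-ADP-ribosyltransferase that marks AhR for degradation, had 0.14 ± 0.082 (adjusted p = 0.702). Ugt1a6a, a glucuronosyltransferase gene that shares exons with its neighbours in the Ugt1a cluster, had 0.50 ± 0.16. Within 20 Mb on each side of Ahr on chromosome 12, 7 of 112 genes (6.25%) were at an unadjusted p under 0.05, against 8.44% of all genes, and 9 (8.04%) had responses that did not overlap, against 8.94%.

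The remaining lists are given as members more positive and members more negative, against 3.95% and 4.49% of all genes. The DNA damage and p53 list, which holds Rmi2, had 0 and 3 of 24, with a median of -0.10. Leaving out single numbers gave 0 to 1 more positive and 2 to 4 more negative members and medians of -0.12 to -0.043, the latter without number 1. MHC class II and costimulation had 0 and 4 of 17, led by the peptide loading genes H2-DMb1 (-0.21 ± 0.062) and H2-DMa (-0.21 ± 0.064), with 0 and 7 without number 7 and 0 and 2 without number 4 or number 6. LXR and lipid efflux had 2 and 0 of 12: the cholesterol exporter Abcg1 (0.59 ± 0.15) and the lipoprotein Apoe (0.57 ± 0.20), whose responses overlapped. These were 4 and 1 without number 7, 3 and 1 without number 3, and 1 and 0 without number 4.

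Glycolysis and hypoxia response had 4 and 0 of 25, with the angiogenic factor Vegfa first (0.49 ± 0.12). It had 6 and 1 without number 7, 2 and 0 without number 4, 2 and 2 without number 6 and 1 and 0 without numbers 1 and 2. The NF-kB and inflammatory cytokine list had 1 and 0 of 25, with a median of 0.01, and changed to 5 and 0 without number 1 and to 0 and 6 without number 7. Interferon-stimulated genes had 0 and 2 of 32, with a median of -0.083, and 0 and 10 without number 7. Without numbers 1 and 2 they had 3 and 0, with a median of 0.10. Glucocorticoid and circadian genes had 2 and 2 of 21, with 1 to 3 and 2 to 3 when each number was left out. Chemokine and chemoattractant receptors had 1 and 2 of 19, with 0 to 4 and 0 to 3.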

How the data were processed

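Polyadenylated RNA of 14 libraries was sequenced as stranded paired-end reads, per the labels' protocols. The authors deposited whole-number counts per Ensembl gene identifier in 1 table; FastQC, STAR and the mm10 build are named in the submitters' processing notes, and the counting tool is not given in the sources used here. Symbols and positions came from GENCODE M21 by the identifier without its version (55394 of 55487 identifiers matched, and 55094 also with version). Promoter sequences came from RefSeq (GRCm38.p6).

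From these counts, autosomal genes passing filterByExpr (14288) were scaled with TMM over autosomal totals (31907848 to 40997720) and fitted in edgeR 4.0.16 (quasi-likelihood; R 4.3.3) with the title number as block and 1 IL-4 effect per genotype, leaving 5 residual degrees of freedom. P-values were Benjamini-Hochberg adjusted over all genes tested. Log2 CPM used a prior count of 2. The script was tested on simulated data. Alternatives used DESeq2 1.42.0 and limma 3.58.1; figures used matplotlib 3.10.9. No label ties libraries to separate mice. With the number as block, p-values measure the spread of the within-number responses, which may be technical. That the numbers pair libraries was taken from the titles. In all 7 numbers the correlation of deviations was higher within the number than with an IL-4 library of another number of the same genotype. For number 7 these were 0.175 and 0.070, so its pairing was checked only weakly.

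Named genes had a symbol that is no placeholder, a mean log2 CPM that reached 1, a mean count of 10 or more in each group and non-overlapping responses: the 12 smallest p in each direction. In each list up to 4 members with the smallest p were named, whether or not their responses overlapped. Ahr, Ahrr, Tiparp, Arg1, Il1b and Socs1 were added for reference, and Cyp1b1 did not pass the filter; genes that earlier results name, such as Hes1, could also be named. Members and lists were chosen with earlier results of these data known.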

Additional observations from a re-analysis of the deposited data

Results flagged for a closer look

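Some of the named genes had IL-4 responses of opposite direction in the genotypes, with every wild-type number on one side of 0 and every AhR-deficient number on the other. They are Sik1 (interaction 0.61), Fos (0.68), Fosl2 (0.59), Cttnbp2nl (0.49) and Sesn2 (-0.39). The difference itself was tested: it passed the adjusted threshold in DESeq2 with the block and not in edgeR, where the adjusted p was 0.122, 0.131, 0.182, 0.182 and 0.217. Over all 14288 genes, 122 had opposite signs in all 7 numbers.

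In 4 of 96 groups of 4 wild-type values, 1 library lay far from the other 3 (its gap to the nearest, as a share of the range, passed Dixon's critical value for 4 values); chance flags about 1 in 20 such groups. Rmi2 was at 4.35 CPM in the medium library of number 7, below the other 3. The response of Emp1 was 0.33 in number 3, above the others, and that of Hvcn1 was 1.87 in number 1, also above. Socs1 was at 174 CPM in the IL-4 library of number 3, where the other wild-type numbers 1, 2 and 7 were at 125, 124 and 122 CPM.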

How the results depend on the processing

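The absence of edgeR calls held when each number was left out in turn (0 to 0 genes called, smallest adjusted p 0.0569 without number 7 to 0.748 without number 4) and without the replicate block (0, smallest adjusted p 0.170). DESeq2 with the block called 57 genes, and edgeR without the low-count filter 216; the cause was not tested. The number of genes at an unadjusted p under 0.05 was 533 without the replicate block, 673 in DESeq2, and 565 to 1617 when each number was left out. Its split of 564 more positive and 642 more negative became 693 and 405 with the filter of 1 CPM in 3 libraries and 669 and 520 with DESeq2 size factors. The 24 named genes kept their sign in all 14 alternatives that were run for them. An unadjusted p under 0.05 was reached by 24 in each, except without the block (19) and in limma on the within-number differences (23). They were chosen on these same responses, which do not overlap, so their sign could hardly turn. The sign of 2 reference genes turned: Ahr was at -0.0079 with a granulocyte score as covariate, -0.053 without replicate 6 and -0.0033 without replicate 7 (-0.053 to 0.17 when each number was left out), and Il1b, 0.22 in the fit with all numbers, was at -0.036 with that covariate and -0.084 without replicate 7 (-0.084 to 0.52). With 3 AhR-deficient numbers, 5 residual degrees of freedom limit what a single gene can show. The alternatives for the gene lists and for the smaller responses of rising and falling genes were chosen after seeing the data.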

Other observations

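Fcgr1, which encodes the high-affinity IgG receptor CD64 of monocytes, was among the marker genes with non-overlapping responses. It was at 39.4, 33.1, 31.3 and 30.7 CPM in wild type in medium and 26.6, 26.3, 23.3 and 23.6 CPM in IL-4, and at 43.6, 48.1 and 60.8 CPM and 42.3, 47.0 and 57.4 CPM in AhR-deficient libraries. It fell in wild type (edgeR adjusted p = 3.5e-05), and in AhR-deficient libraries, which were higher in both conditions, the change did not pass the test (edgeR adjusted p = 0.48). The interaction was 0.37 ± 0.07 (adjusted p = 0.19 in edgeR, 0.0639 in DESeq2, neither past the threshold).

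Glcci1, a gene induced by glucocorticoids, turned over between the conditions at a low level. It was at 1.01 to 1.35 CPM in wild type and 1.75 to 1.99 CPM in AhR-deficient libraries in medium. In IL-4 it was at 1.03 to 1.43 CPM and 0.721 to 0.941 CPM, for an interaction of -1.18 ± 0.28 (adjusted p = 0.355 in edgeR).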
